A study of Gallus gallus with 12 samples.

Results

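The genes described here are the enzymes that place or remove modifications on histones, and the TET enzymes that oxidise methylated cytosine, in the chicken B cell lymphoma line DT40. They were chosen by symbol alone, as every gene whose symbol begins with KDM, KMT, SETD, PRMT, HDAC, KAT, SIRT or TET followed by a digit. This gave 49 of the 24356 annotated genes, of which 13869 carry a symbol. The 22 writers were 5 KMT, 7 SETD, 4 PRMT and 6 KAT genes. The 27 erasers were 12 KDM, 7 HDAC and 7 SIRT genes with *TET2*, the only TET gene that the symbol rule found.

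RNA-seq of polyadenylated RNA was carried out in 4 DT40 lines with 3 libraries each: wild type, *timeless* (labelled TIMELESS KO), *ddx11* (DDX11 KO) and *fancj* (FANCJ KO). The study disrupted *TIMELESS* around exon 1 and *DDX11* with CRISPR-Cas9 and isolated clones from single sorted cells. It also used an older *ddx11* line made by conventional gene targeting, and *fancj* is an older line as well. By its methods, RNA came from 3 independent cell populations, and only RNA of high quality went into libraries. All lines grew in the same medium, and no drug is named for these samples. Which clone was sequenced is not given in the sources used here, so differences between a mutant and wild type and differences between clones cannot be told apart. If the 3 libraries of a line came from 1 clone, p-values measure only the spread within that clone.

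Histone marks act as a memory of which genes are active. Methyltransferases (KMT, SETD and, on arginine, PRMT) and acetyltransferases (KAT) add groups to histone tails, while demethylases (KDM), deacetylases (HDAC) and the NAD-dependent sirtuins (SIRT) take them off. During replication the parental histones are passed to the daughter strands and their marks are copied on to new histones, and an interruption of that hand-over at a stalled fork can erase the mark pattern of a locus. TIMELESS is part of the replisome, and DDX11 and FANCJ are helicases that help forks past folded DNA. The comparison here is of the RNA levels of the enzymes themselves in lines labelled as lacking these factors. Roles are given as known from the human and mouse proteins, and several genes caught by the symbol rule act mainly on proteins other than histones.

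The libraries held 13406041 to 50160512 expected counts each (median 20125298), the reads that RSEM assigned to genes. All 10 B cell markers examined averaged at least 1 TPM (a transcript level scaled for gene length and library size) in every line, and their summed level ranged over the libraries from 1056 to 1736 TPM for wild type, 810 to 1309 TPM for *timeless*, 1144 to 1405 TPM for *ddx11* and 487 to 1133 TPM for *fancj*. *BRIP1*, the gene for FANCJ, was at 5.16 to 8.52 TPM in wild type and at 7.81, 8.47 and 1.23 TPM in the libraries labelled *fancj*, so 2 of these 3 were not below the wild-type range, whereas *TIMELESS* and *DDX11* were each below every wild-type library in their own mutant. *TIMELESS* was also below every wild-type library in *fancj*, at 30.48, 21.29 and 8.88 TPM, beside 24.27, 21.39 and 22.57 TPM in *timeless*. The library *fancj* replicate 3 stands apart from the other 11. It was the lowest of the 12 libraries for 36 of the 48 genes that reached a mean of 1 TPM in at least 1 line (75.0%). Over all 12320 genes at that level, 52.4% had either their lowest or their highest value there, and Spearman's rho of TPM with the other *fancj* libraries was 0.918 and 0.928, against 0.946 to 0.974 for the other pairs of libraries of a line. The main *fancj* results are therefore also given without this library.

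Most of these enzymes had similar means in the 4 lines. *PRMT8*, a membrane-bound arginine methyltransferase of the brain, had 1 count in the 12 libraries together, and the other 48 members reached a mean of 1 TPM in at least 1 line. The median member was at 26.6 TPM among writers and 22.3 TPM among erasers, averaged over the 4 lines. The ratio of the highest to the lowest line mean had a median of 1.36 over the 48 members and was under 2 for 45 of them (93.8%). Over the 12320 genes the median ratio was 1.54 and 69.9% were under 2. Those genes include any that reached a mean of 1 TPM in only 1 line, and they were not matched to the members for level. The 3 members above 2 were *KAT2B* (18.7), *SIRT5* (2.37) and *KMT2C* (2.07).

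**Figure D1:**
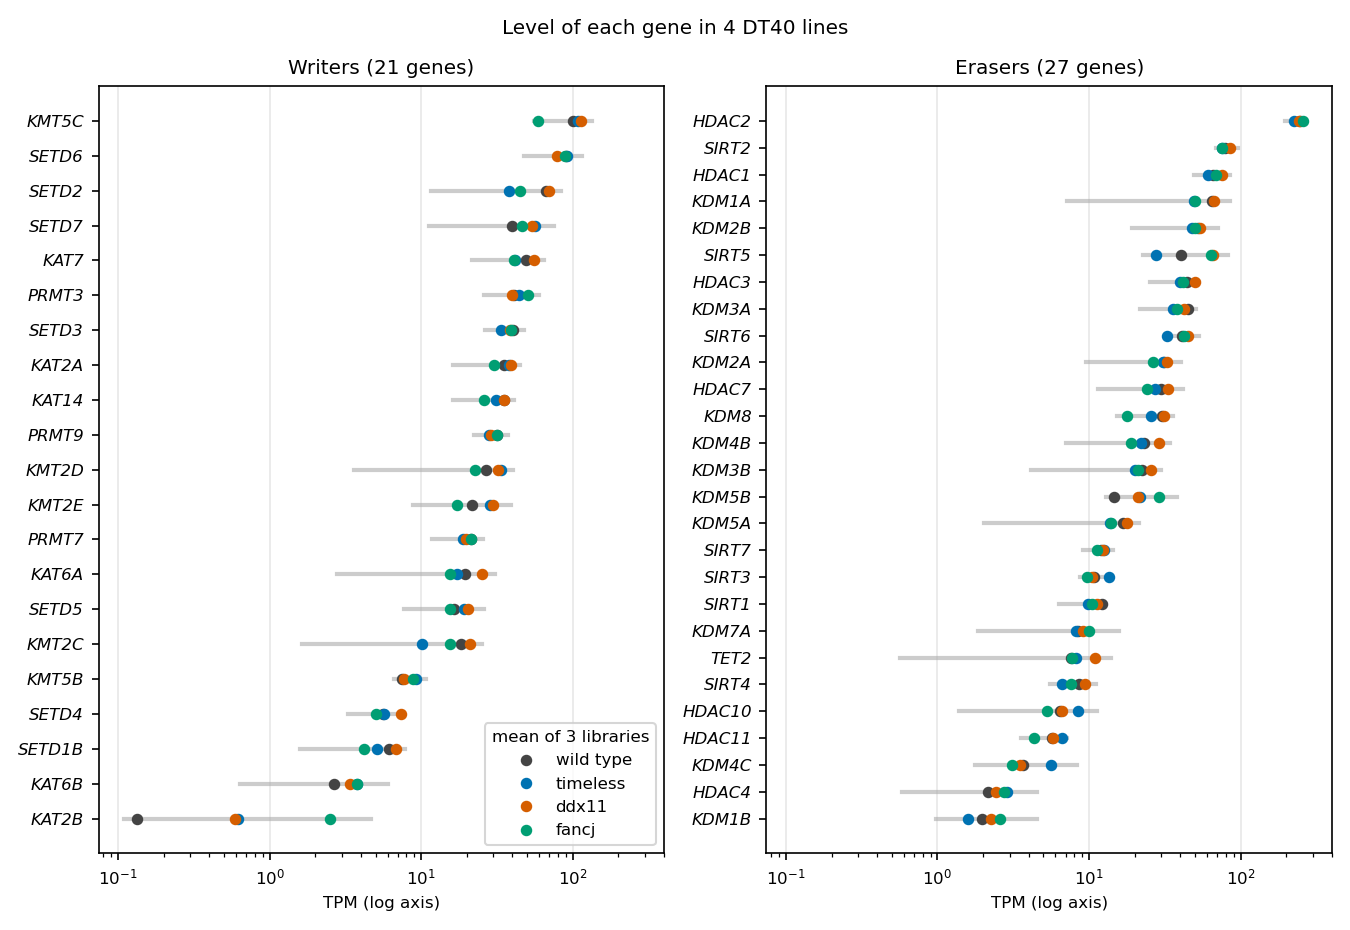
Mean TPM of each writer (left) and eraser (right) in the 4 lines on a log axis, with each point a mean of 3 libraries and each grey bar the range over the 12 libraries; *PRMT8* is left out. *HDAC2* is highest at 243 TPM, and for most genes the 4 points lie close together while the bar runs far to the left, its low end being *fancj* replicate 3 for 36 genes.

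*HDAC2* was the most abundant transcript of the set. It encodes a nuclear deacetylase that works with *HDAC1* in the NuRD, Sin3 and CoREST complexes. Its level was 269.30, 230.08 and 240.78 TPM in wild type, 240.64, 197.71 and 232.55 in *timeless*, 265.85, 233.43 and 234.28 in *ddx11* and 271.34, 264.99 and 234.73 in *fancj*. The 4 lines overlapped, and the lowest of these values lay above every value of every other member, the next highest being 133.33 TPM of *KMT5C* in *timeless* replicate 2.

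*SIRT2*, a mainly cytoplasmic sirtuin that also acts on acetylated histone H4 in mitosis, was second among the erasers. It was at 96.12, 68.78 and 73.50 TPM in wild type, 69.06, 85.95 and 69.92 in *timeless*, 79.51, 90.52 and 84.09 in *ddx11* and 75.05, 75.47 and 77.35 in *fancj*. *HDAC1* followed at 79.05, 56.99 and 60.48 TPM in wild type, 75.49, 51.38 and 55.56 in *timeless*, 81.04, 72.47 and 71.07 in *ddx11* and 85.39, 71.45 and 49.54 in *fancj*. *SIRT2* and *HDAC1* overlapped each other in every line, and in no mutant did either stand apart from wild type. The expected counts of *HDAC1*, *SIRT2*, *SIRT7*, *KDM4B* and *KDM8* were not whole numbers in any library, which RSEM gives where reads are shared with another gene, so their levels are less certain. The same held for *SIRT6* in 11 libraries, *SIRT1* in 10, *KMT2D* in 5 and *SETD1B* in 4. It held in fewer libraries for *KMT5B*, *PRMT9* and *SETD5*.

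Among the writers *KMT5C* was highest. It encodes a methyltransferase that adds the repressive methyl groups on histone H4 found in heterochromatin. It was at 97.44, 103.67 and 99.99 TPM in wild type, 92.97, 133.33 and 99.51 in *timeless*, 102.05, 117.70 and 119.50 in *ddx11* and 55.33, 60.31 and 60.43 in *fancj*. All 3 *fancj* libraries were below the other 9. *SETD6*, a methyltransferase known for the NF-kappa-B subunit RELA, was next at 67.39, 104.57 and 100.06 TPM in wild type, 96.38, 63.15 and 113.59 in *timeless*, 103.86, 47.98 and 82.87 in *ddx11* and 93.86, 115.99 and 57.53 in *fancj*. It varied as much within a line as between lines, and its range overlapped that of *KMT5C* in every line.

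*SETD2*, the enzyme that places the trimethyl mark of histone H3 along transcribed gene bodies, was the third writer by mean level. It was at 74.93, 58.36 and 66.67 TPM in wild type, 44.87, 38.29 and 29.96 in *timeless*, 83.80, 67.47 and 57.23 in *ddx11* and 60.35, 63.65 and 11.64 in *fancj*. All *timeless* libraries lay below all wild-type and all *ddx11* libraries, and *fancj* replicate 3 lay below the other 11 libraries.

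The remaining writers that did not need a value in every library had line means from 7.46 to 56.5 TPM. *SETD7*, which methylates histone H3 and other proteins, had line means of 40.0 to 56.5 TPM. *KAT7*, an acetyltransferase of replication origins and gene bodies, had 41.1 to 55.9 TPM. *PRMT3*, whose main substrate is a ribosomal protein, had 39.6 to 50.7 TPM, and *SETD3*, which methylates actin, had 33.5 to 40.4 TPM. *KAT2A*, the catalytic subunit of the SAGA and ATAC complexes, was at 30.2 to 39.2 TPM and *KAT14*, another subunit of ATAC, at 26.2 to 35.2 TPM. *PRMT9*, which methylates a splicing factor, was at 28.0 to 31.8 TPM. *KMT2D*, which places the methyl mark of enhancers on histone H3, was at 22.8 to 33.6 TPM, and *KMT2E*, a relative of it with little enzymatic activity of its own, at 17.2 to 29.8 TPM. *KAT6A*, the MOZ acetyltransferase, was at 15.5 to 25.1 TPM, *SETD5* at 15.5 to 20.4 TPM and *KMT5B*, the partner of *KMT5C* in H4 methylation, at 7.46 to 9.31 TPM.

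At the low end of the writers above 1 TPM stood *SETD4*, *SETD1B* and *KAT6B*. *SETD4* was at 6.08, 4.36 and 6.25 TPM in wild type, 7.09, 4.90 and 5.08 in *timeless*, 7.63, 7.56 and 7.02 in *ddx11* and 6.92, 4.77 and 3.31 in *fancj*. Its 3 *ddx11* libraries lay above the 3 wild-type libraries. *SETD1B*, a COMPASS methyltransferase of active promoters, was at 7.67, 5.82 and 5.05 TPM in wild type, 6.26, 6.11 and 3.06 in *timeless*, 7.02, 7.82 and 5.58 in *ddx11* and 4.87, 6.17 and 1.58 in *fancj*. *KAT6B*, the MORF acetyltransferase and closest relative of *KAT6A*, was at 3.22, 2.39 and 2.32 TPM in wild type, 4.41, 4.42 and 2.56 in *timeless*, 3.94, 3.91 and 2.33 in *ddx11* and 4.71, 6.02 and 0.64 in *fancj*. *SETD1B* and *KAT6B* overlapped between every mutant and wild type.

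Among the other erasers, *KDM1A*, the flavin-dependent demethylase of active promoters and enhancers, had line means of 49.6 to 66.6 TPM, and *KDM2B*, which reads unmethylated CpG islands and brings in a Polycomb complex, had 47.8 to 53.8 TPM. *HDAC3*, the deacetylase of the NCoR and SMRT corepressors, was at 39.8 to 49.9 TPM. *KDM3A* and *KDM3B*, which remove repressive methylation from histone H3, were at 35.8 to 45.2 and 20.2 to 25.7 TPM. The chromatin-bound sirtuin *SIRT6* was at 32.7 to 44.8 TPM, *KDM2A*, the sister of *KDM2B*, at 26.3 to 32.8 TPM, and *HDAC7*, a signal-controlled deacetylase, at 24.2 to 33.0 TPM. *KDM8*, a Jumonji-type oxygenase, was at 17.9 to 31.3 TPM, *KDM4B*, which acts on the repressive marks of histone H3, at 18.9 to 28.8 TPM and *KDM5A*, which removes the promoter mark of histone H3, at 13.8 to 17.8 TPM. The nucleolar *SIRT7* was at 11.3 to 12.5 TPM, the mitochondrial *SIRT3* at 9.76 to 13.5 TPM, the nuclear *SIRT1* at 9.83 to 12.3 TPM, *KDM7A*, which removes repressive methylation, at 8.15 to 9.93 TPM and the mitochondrial *SIRT4* at 6.63 to 9.35 TPM. *HDAC10*, a polyamine deacetylase, was at 5.28 to 8.47 TPM and *HDAC11*, which removes long acyl groups, at 4.31 to 6.68 TPM.

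The erasers with the lowest levels were *KDM4C*, *HDAC4* and *KDM1B*. *KDM4C*, a sister of *KDM4B*, was at 3.78, 3.94 and 3.33 TPM in wild type, 4.95, 8.39 and 3.42 in *timeless*, 4.06, 3.60 and 2.92 in *ddx11* and 2.86, 4.65 and 1.78 in *fancj*. *HDAC4*, a sister of *HDAC7*, was at 2.32, 2.07 and 2.11 TPM in wild type, 2.60, 4.55 and 1.53 in *timeless*, 2.55, 3.27 and 1.53 in *ddx11* and 3.33, 4.35 and 0.58 in *fancj*. *KDM1B*, the second flavin-dependent demethylase, was at 1.92, 2.30 and 1.70 TPM in wild type, 1.68, 1.49 and 1.57 in *timeless*, 3.09, 1.70 and 1.94 in *ddx11* and 2.26, 4.53 and 0.98 in *fancj*. The *timeless* libraries of *KDM1B* lay just below those of wild type, and the other lines of these 3 genes overlapped wild type.

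*TET2* oxidises methylated cytosine as a step in the removal of DNA methylation. It was at 8.44, 8.54 and 5.98 TPM in wild type, 8.94, 9.68 and 5.97 in *timeless*, 13.94, 11.58 and 7.39 in *ddx11* and 11.15, 11.47 and 0.57 in *fancj*. In every line replicate 3 was the lowest, and in *fancj* it held 62 expected counts and 0.0504 of the mean of the other 2 libraries. No mutant passed the threshold against wild type. The log2 fold change was 0.15 in *timeless* (SE 0.23, edgeR adjusted p = 0.765), 0.43 in *ddx11* (SE 0.22, edgeR adjusted p = 0.542) and -0.14 in *fancj* (SE 0.77, edgeR adjusted p = 0.942). Without *fancj* replicate 3 the last became 0.39 (SE 0.20, edgeR adjusted p = 0.31). In a paired fit blocked on replicate number it was -0.70 (SE 0.70, edgeR adjusted p = 0.654).

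The summed levels of each class overlapped between every mutant and wild type. The 22 writers together were at 676 ± 13.2 TPM in wild type, 661 ± 65.8 in *timeless*, 726 ± 77.1 in *ddx11* and 591 ± 213 in *fancj* (SD, n = 3 each). The 27 erasers were at 927 ± 120, 839 ± 92.8, 1002 ± 55.2 and 914 ± 235 TPM in the same order. The sums of the *fancj* libraries were 681, 744 and 347 TPM for writers and 1066, 1032 and 643 TPM for erasers, the third being replicate 3.

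Levels in *fancj* replicate 3 were lower the longer the gene. Against the mean of *fancj* replicates 1 and 2, on a log2 scale of TPM with 0.1 added, the 9 members shorter than 2000 bases had a median of -0.19, the 21 members of 2000 to 4000 bases a median of -0.96 and the 18 longer members a median of -2.12. The medians over all genes in the same classes were -0.23, -0.78 and -1.52. Spearman's rho with length was -0.66 across the 48 members and -0.38 across the 12320 genes, which are points of 1 library and not replicates. The members are long, with a median of 3193 bases against 1994 for all genes. The same tilt was present at smaller size in replicate 3 of 2 other lines. Members over 4000 bases had a median of -0.70 in *timeless* replicate 3 and -0.40 in *ddx11* replicate 3 against the other libraries of their line. Over all genes of that length the medians were -0.48 and -0.35. In wild type such members had a median of -0.19 in replicate 3 and -0.23 in replicate 2, beside -0.02 and -0.11 over all genes. *KMT2C*, of 14310 bases, was at 0.0733 of the other *fancj* libraries and *KMT2D*, of 16760 bases, at 0.111, while *SIRT5* (1115 bases) was at 1.08 and *KMT5C* (1342 bases) at 1.05. The order was not strict, and *KDM1A* with 2481 bases was at 0.1 and *HDAC10* with 888 bases at 0.191. The part of length in the comparisons between lines was not tested.

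**Figure D2:**
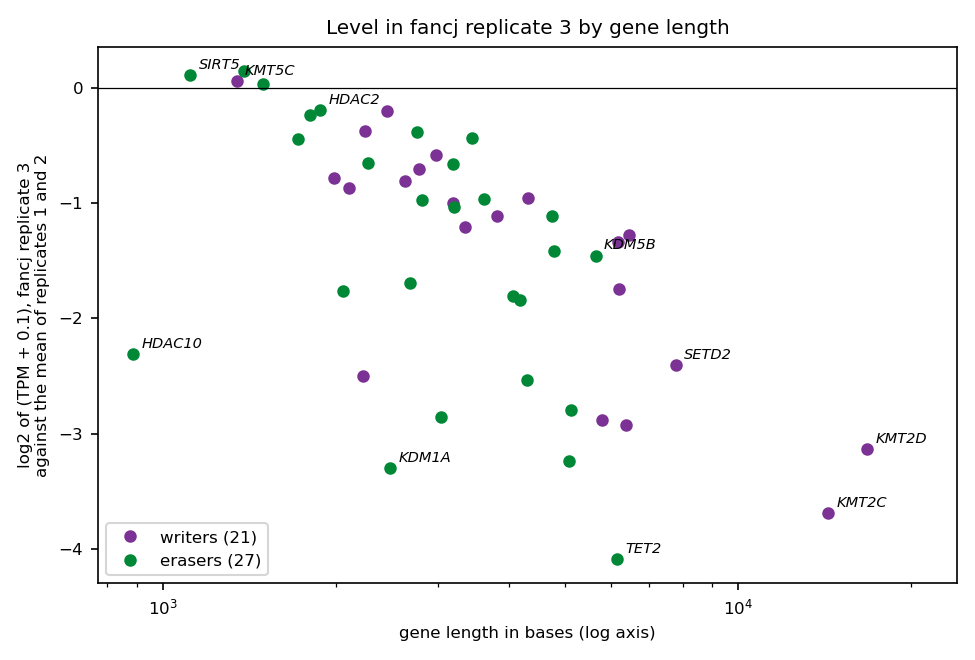
Log2 of TPM plus 0.1 in *fancj* replicate 3 against the mean of *fancj* replicates 1 and 2 (vertical axis) by gene length in bases (log axis), with each point a member, 21 writers in purple and 27 erasers in green. Points fall from near 0 at 1115 bases (*SIRT5*) to -3.69 at 14310 bases (*KMT2C*), with *TET2* lowest at -4.09.

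To ask whether the lines differ, each mutant was compared with wild type by edgeR's quasi-likelihood test over all genes that averaged 1 TPM or more in either line, with Benjamini-Hochberg adjustment over all of them. A gene is called altered at an adjusted p under 0.05. The SE of a log2 fold change was taken from the test's F statistic. The 3 comparisons share the wild-type libraries. A bulk RNA level cannot tell fewer expressing cells from less RNA per cell.

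In *timeless*, 1 of 47 members tested was altered, against 8.2% of all genes tested (955 of 11653). The libraries of the lines did not overlap in TPM for 7 members (14.9%), 2 higher and 5 lower, against 27.6% of all genes. The median log2 fold change of the members was -0.05, beside 0.01 for all genes, and the median absolute change was 0.21 beside 0.29. Of the writers 11 had a positive fold change and 9 a negative one, and of the erasers 10 and 17.

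The altered gene was *SETD2* (ENSGALG00000042051), whose mean fell from 66.7 ± 8.29 TPM in wild type to 37.7 ± 7.47 TPM in *timeless* (SD, n = 3 each). Its expected counts were 5246, 15607 and 5976 in wild type and 5629, 3232 and 2967 in *timeless* before any scaling for depth. The log2 fold change was -0.77 (SE 0.17, edgeR adjusted p = 0.0262), a 1.70-fold lower level. The call did not hold without *timeless* replicate 3 (-0.67, edgeR adjusted p = 0.0724) or without any 1 of the wild-type libraries (adjusted p 0.0694 to 0.111), and it was lost in a fit of all 12 libraries (-0.76, edgeR adjusted p = 0.276).

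*KMT2C* (ENSGALG00000049653), the sister enzyme of *KMT2D* at enhancers, had the lowest fold change of all members in *timeless*. It was at 24.16, 15.61 and 15.04 TPM in wild type, 12.74, 10.83 and 6.69 in *timeless*, 22.70, 25.21 and 14.77 in *ddx11* and 23.43, 21.32 and 1.64 in *fancj*. All *timeless* libraries lay below all wild-type and all *ddx11* libraries. The log2 fold change of -0.81 (SE 0.25) did not pass the threshold in the edgeR test against wild type (adjusted p = 0.0889). *KMT2C* was altered in the Wald test of DESeq2 (adjusted p = 0.0242), while the edgeR adjusted p was 0.532 with all 12 libraries in 1 fit and 0.105 to 0.232 when each library was left out in turn.

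At the upper end in *timeless* were *KDM4C*, at a log2 fold change of 0.79 (SE 0.34, edgeR adjusted p = 0.218), and *KDM5B*, at 0.64 (SE 0.21, edgeR adjusted p = 0.113). Without *timeless* replicate 2 these were 0.35 and 0.39. *KDM5B* (ENSGALG00000038948) removes the methyl mark of active promoters from histone H3. It was at 16.56, 13.04 and 14.44 TPM in wild type, 20.97, 28.26 and 16.03 in *timeless*, 19.15, 25.04 and 19.41 in *ddx11* and 37.97, 35.70 and 13.37 in *fancj*. Its *ddx11* libraries were all above wild type, and its *timeless* and *fancj* libraries each overlapped wild type through replicate 3. *SIRT3* and *KMT5B* were also higher in all 3 *timeless* libraries than in wild type, and *SIRT4*, *SIRT6* and *KDM1B* lower, with edgeR adjusted p from 0.269 to 0.673.

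*SETD2* and *KMT2C* share a chromosome with *SIRT5*, *KDM1B* and *KAT2B* in the GRCg7b gene table of RefSeq, which was used only to see which genes lie together. This was the chromosome with the most genes lower in *timeless*, found after the values were seen. It carried 8.26% of the tested genes that could be matched to the table and 185 of the 343 matched genes that were lower in *timeless*. The median log2 fold change over its 661 genes was -0.57 in *timeless*, beside 0.00 for the other matched genes, and over the genes tested it was -0.03 in *ddx11* and 0.12 in *fancj*. All 4 of its members tested in *timeless* had negative fold changes (-0.81 to -0.27, median -0.62), beside 21 of the 41 members matched elsewhere (median -0.01). *KAT2B*, also on this chromosome, fell under the limit of 1 TPM and was not tested in *timeless*. With no TPM limit it went the other way, at 2.11 (SE 0.68, edgeR adjusted p = 0.0783). *KMT5C* and *SETD1B* were not matched. The part of this chromosome in the *SETD2* and *KMT2C* values was not tested.

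**Figure D3:**
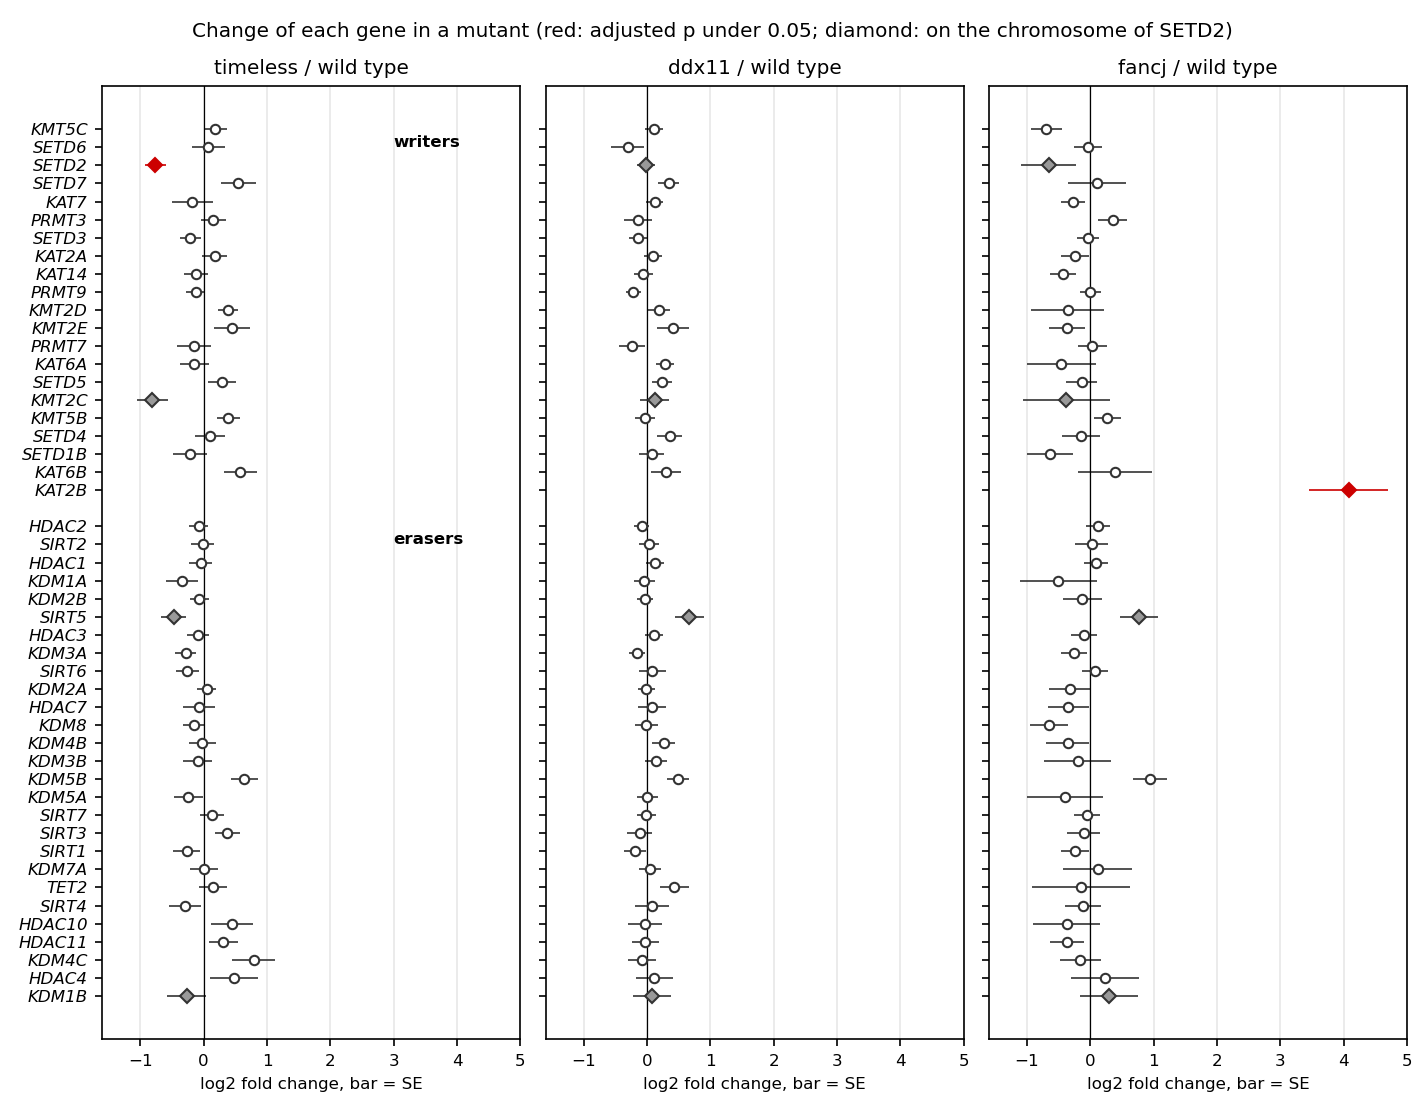
Log2 fold change against wild type of each member tested in *timeless*, *ddx11* and *fancj*, with bars of 1 SE; red marks an adjusted p under 0.05 and diamonds the members on the chromosome of *SETD2*. *SETD2* in *timeless* (-0.77) and *KAT2B* in *fancj* (4.08) are red, no point is red in *ddx11*, and most points lie near 0.

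In *ddx11*, none of the 47 members tested was altered by edgeR, against 2.62% of all genes (301 of 11470). DESeq2 also called none, against 4.77% of all genes. Unadjusted p was under 0.05 for 2 members, *SIRT5* and *KDM5B*, beside 1272 of the 11470 genes. The lines did not overlap in TPM for 3 members (6.38%), *SIRT5*, *KDM5B* and *SETD4*, all higher, against 14.4% of all genes. The median log2 fold change of the members was 0.08, beside 0.00 for all genes. The median absolute change was 0.12, beside 0.19, and the SE of a member ran from 0.12 to 0.30.

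*SIRT5* (ENSGALG00000012692), the mitochondrial sirtuin that removes succinyl and other acidic groups from lysine, had the highest fold change in *ddx11*. It was at 48.12, 33.91 and 38.72 TPM in wild type, 34.50, 26.24 and 22.73 in *timeless*, 51.07, 82.13 and 64.93 in *ddx11* and 70.88, 53.49 and 67.28 in *fancj*. Its *ddx11* and *fancj* libraries lay above all wild-type and all *timeless* libraries. The log2 fold change was 0.67 in *ddx11* (SE 0.23, edgeR adjusted p = 0.252), 0.77 in *fancj* (SE 0.30, edgeR adjusted p = 0.245) and -0.47 in *timeless* (SE 0.20, edgeR adjusted p = 0.203), and none of these passed the threshold. Without *fancj* replicate 3 the value in *fancj* was 0.48 (SE 0.21, edgeR adjusted p = 0.241). *KDM5B* in *ddx11* was at 0.49 (SE 0.17, edgeR adjusted p = 0.258).

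The lowest values in *ddx11* belonged to *SETD6*, at a log2 fold change of -0.30 (SE 0.26, edgeR adjusted p = 0.718), and *PRMT7*, at -0.23 (SE 0.20, edgeR adjusted p = 0.719). Without *ddx11* replicate 2 these were -0.061 and -0.085. *PRMT7* adds single methyl groups to arginine. It was at 16.90, 21.95 and 25.56 TPM in wild type, 25.00, 11.76 and 19.48 in *timeless*, 24.71, 14.72 and 19.45 in *ddx11* and 22.04, 24.46 and 17.96 in *fancj*, and every mutant overlapped wild type. *SETD2* was level with wild type in *ddx11*, at -0.02 (SE 0.15, edgeR adjusted p = 0.976).

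In *fancj*, 1 of 48 members tested was altered, against 4.28% of all genes (506 of 11824). This was *KAT2B*, which passed the limit of 1 TPM only through its level in *fancj*. With that limit in both lines 0 of 47 members were altered. The lines did not overlap in TPM for 4 members (8.33%), against 23.0% of all genes. *KAT2B* and *SIRT5* were higher and *KMT5C* and *KDM8* lower. The median log2 fold change of the members was -0.14, beside 0.03 for all genes, and 33 of the 48 were negative. Without *fancj* replicate 3 the median was 0.00 and 24 of 48 were negative.

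*KAT2B* (ENSGALG00000011278) encodes PCAF, an acetyltransferase that takes the place of *KAT2A* in the SAGA and ATAC complexes. It was at 0.11, 0.18 and 0.11 TPM in wild type, 0.33, 1.17 and 0.37 in *timeless*, 0.76, 0.65 and 0.36 in *ddx11* and 1.34, 4.69 and 1.46 in *fancj*. These levels rest on few reads, with expected counts of 3, 20 and 4 in wild type, 17, 40 and 15 in *timeless*, 34, 44 and 12 in *ddx11* and 61, 122 and 83 in *fancj*. Every mutant library was above every wild-type library and every *fancj* library above all others. *KAT2B* reached a mean of 1 TPM in *fancj* alone, so it was tested only in comparisons with that line, where it had to be the higher. The log2 fold change against wild type was 4.08 (SE 0.63, edgeR adjusted p = 0.0175), a 16.9-fold higher level, and 4.19 (SE 0.65, edgeR adjusted p = 0.0164) without *fancj* replicate 3.

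The *KAT2B* call was lost without *fancj* replicate 2 (3.52, edgeR adjusted p = 0.0556) and without any 1 of the wild-type libraries (edgeR adjusted p 0.0839 to 0.109), and the limit of 1 TPM in both lines leaves the gene out. With no TPM limit its log2 fold change was 2.11 in *timeless* (SE 0.68, edgeR adjusted p = 0.0783), 1.96 in *ddx11* (SE 0.58, edgeR adjusted p = 0.0899) and 4.03 in *fancj* (SE 0.64, edgeR adjusted p = 0.00817). Of 4 myeloid markers listed, 2 were in the files. *CSF1R* was at 0.00 to 0.07 TPM in wild type and higher in every *fancj* library, at 0.54, 3.67 and 1.09 TPM. *CSF3R* was at 0.04, 0.01 and 0.00 TPM in wild type and at 0.00, 1.61 and 0.57 TPM in *fancj*, so *fancj* replicate 1 was not above wild type. The summed level of the pair was 0.00 to 0.08 TPM in wild type and 0.54 to 5.28 TPM in *fancj*. Of 4 erythroid markers 2 were in the files, HBBA and ALAS2, and their summed level was 27.03 to 29.70 TPM in wild type and 39.76 to 50.78 TPM in *fancj*. The globin gene HBBA was at 0.00, 0.27 and 0.00 TPM in wild type and at 2.03, 10.78 and 10.84 TPM in *fancj*. The 5 T cell markers had a summed level of 155.91 to 217.52 TPM in wild type and 54.37 to 88.73 TPM in *fancj*. Most of that sum was *CD3D*, at 215.41, 155.03 and 155.49 TPM in wild type and 54.20, 52.73 and 85.03 in *fancj*. *CD8A* was at 1.94, 0.08 and 0.78 TPM in wild type and at 12.24, 0.00 and 3.17 TPM in *fancj*. *CD3E*, *CD4* and *LCK* reached at most 1.18 TPM in any library of these lines. The 4 fibroblast markers summed to 8.81 to 10.07 TPM in wild type and to 1.71 to 24.0 TPM in *fancj*. The part of these markers in the *KAT2B* result was not tested.

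**Figure D4:**
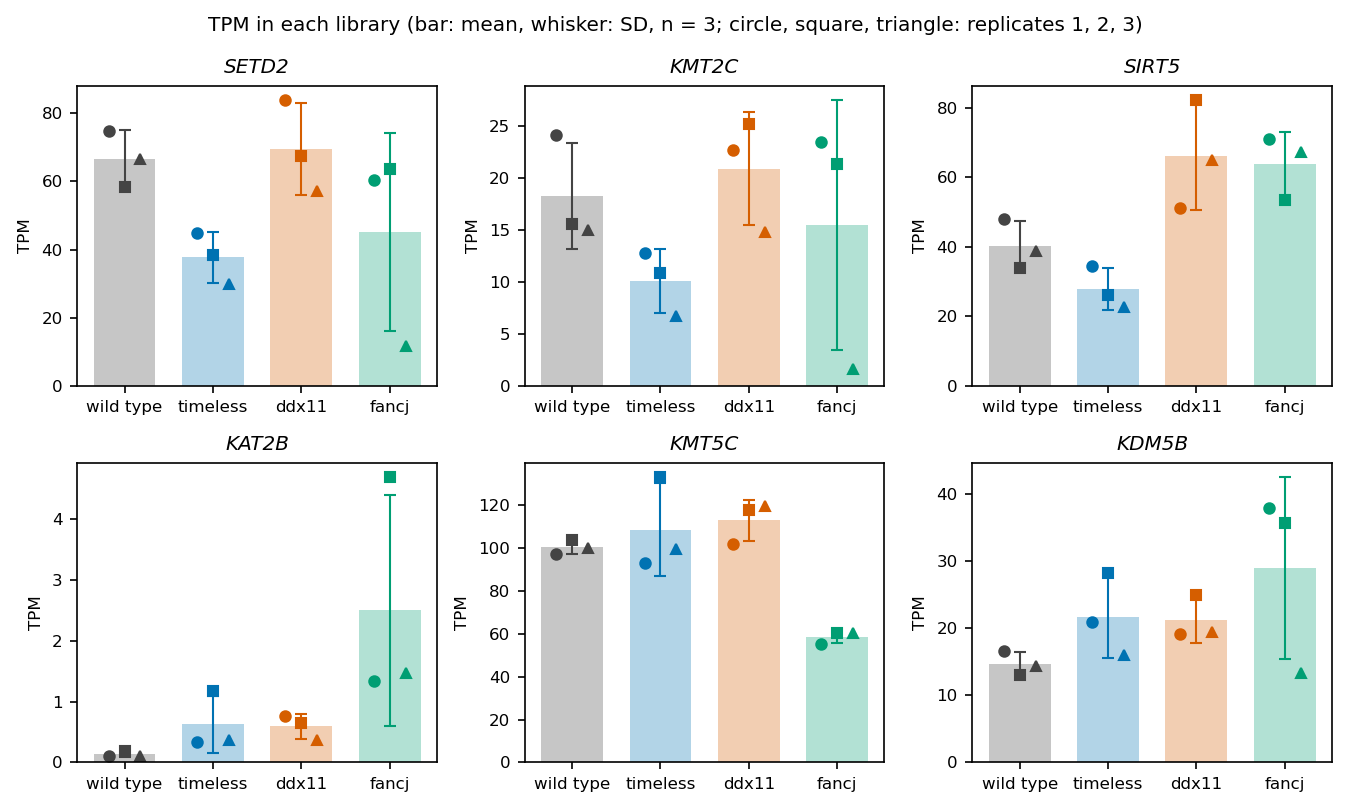
TPM of *SETD2*, *KMT2C*, *SIRT5*, *KAT2B*, *KMT5C* and *KDM5B* in each of the 12 libraries; bars are means, whiskers SD over 3 libraries, and circles, squares and triangles replicates 1, 2 and 3. The *timeless* points of *SETD2* (29.96 to 44.87) lie below wild type (58.36 to 74.93), the *fancj* points of *KMT5C* (55.33 to 60.43) below all others, and the triangle of *fancj* is far down for *SETD2*, *KMT2C* and *KDM5B*.

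Leaving out *fancj* replicate 3 brought 4 members past the threshold, against 7.23% of all genes (864 of 11947). *KAT2B* was joined by *KDM5B*, whose log2 fold change was 1.19 (SE 0.13, edgeR adjusted p = 0.00722), by *KMT5C* at -0.96 (SE 0.12, edgeR adjusted p = 0.00805) and by *KDM8* at -0.96 (SE 0.20, edgeR adjusted p = 0.0411). With all 3 libraries *KDM5B* was at 0.95 (SE 0.27, edgeR adjusted p = 0.114), *KMT5C* (ENSGALG00000053583) at -0.69 (SE 0.24, edgeR adjusted p = 0.195) and *KDM8* at -0.66 (SE 0.30, edgeR adjusted p = 0.339). With 1 library fewer, the spread of *fancj* is that between the remaining 2. *KMT5C* and *KDM8* are among the shortest members. In TPM, replicate 3 had 1.05 and 1.11 of the mean of the other *fancj* libraries, and for *KDM5B* 0.363. The fits use counts, where *KMT5C* had 1032, 644 and 1411 and *KDM8* 369, 169 and 462 in *fancj* replicates 1 to 3. These libraries held 22726834, 13406041 and 22929755 counts, with TMM scaling factors over the 12 libraries of 1.04, 1.07 and 0.84. On that scale replicate 3 was the highest *fancj* library for both genes. *SETD2* was next lowest with all 3 libraries, at -0.66 (SE 0.43, edgeR adjusted p = 0.514), and stood at -0.27 (SE 0.13, edgeR adjusted p = 0.283) without replicate 3.

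Mutants were then set against one another. Of the 47 members tested in *timeless* against *ddx11*, 2 were altered, against 5.12% of all genes (601 of 11736), and both were lower in *timeless*. *SIRT5* was at 27.8 ± 6.04 TPM in *timeless* and 66.0 ± 15.6 TPM in *ddx11* (SD, n = 3 each), a log2 fold change of -1.14 (SE 0.24, edgeR adjusted p = 0.0349). *SETD2* was at 37.7 ± 7.47 TPM in *timeless* and 69.5 ± 13.4 TPM in *ddx11*, a log2 fold change of -0.75 (SE 0.18, edgeR adjusted p = 0.0495). *KMT2C* was at -0.93 (SE 0.25, edgeR adjusted p = 0.0703). In a paired fit with the replicate number as a block, *SETD2* was at -0.75 (SE 0.12, edgeR adjusted p = 0.00558) and *SIRT5* at -1.10 (SE 0.23, edgeR adjusted p = 0.0163). *KMT2C* became altered there as well (-0.93, edgeR adjusted p = 0.00397), and the count over all genes rose to 1629 (13.9%). Neither call was kept by every fit. Leaving out each library in turn, *SETD2* had an edgeR adjusted p from 0.0552 to 0.149 and *SIRT5* from 0.0186 to 0.138. All 3 genes lie on the chromosome described above, whose genes had a median log2 fold change of -0.54 between *timeless* and *ddx11*, beside 0.03 for the other matched genes.

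Between *fancj* and *timeless*, edgeR called none of the 48 members altered, against 0.85% of all genes (102 of 11995). Unadjusted p was under 0.05 for 4 members, *KMT5C*, *KMT2E*, *SIRT5* and *KAT2B*, beside 1736 of the 11995 genes. DESeq2 called 1 member, *SIRT5*, beside 7.06% of all genes. *SIRT5* had a log2 fold change of 1.25 in *fancj* (SE 0.32, edgeR adjusted p = 0.138), and 0.95 (SE 0.24, edgeR adjusted p = 0.109) without *fancj* replicate 3. The chromosome described above, which carries *SIRT5* and *KAT2B*, had a median of 0.65 here, beside 0.01 for the other matched genes. Its part in these values was not tested. Between *fancj* and *ddx11* edgeR again called none of 48, against 0.782% of all genes (93 of 11897). Unadjusted p was under 0.05 for 3, *KMT5C*, *KMT2E* and *KAT2B*, beside 1663 of the 11897 genes. DESeq2 called 1 member, *KAT2B*, beside 7.03% of all genes. *KMT5C* in *fancj* had a log2 fold change of -0.87 against *timeless* (SE 0.30, edgeR adjusted p = 0.237) and -0.81 against *ddx11* (SE 0.27, edgeR adjusted p = 0.231). Without *fancj* replicate 3 the first was -1.14 (SE 0.23, edgeR adjusted p = 0.0713), and the second passed the threshold at -1.10 (SE 0.19, edgeR adjusted p = 0.0306). In that second fit 2.03% of all genes were altered.

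Other genes of the same pathways were followed through 5 lists, of which 122 genes that the symbol rule does not catch are reported here: other histone writers, other histone erasers, genes of DNA methylation and its removal, and the partners of each class in their complexes. Of these, 98 were in the files and 96 were tested. Among these 96, edgeR called 1 altered in *timeless*, 0 in *ddx11* and 0 in *fancj* against wild type, beside 8.2%, 2.62% and 4.28% of all genes. Unadjusted p was under 0.05 for 9, 4 and 4 of them, beside 2528 of 11653, 1272 of 11470 and 1995 of 11824 genes tested. DESeq2 called 6, 2 and 1 of them, beside 12.9%, 4.77% and 11.2% of all genes.

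The gene that edgeR called was *SGF29* (ENSGALG00000020590), the subunit with which SAGA and ATAC read the methyl mark of promoters. It was at 69.97, 88.12 and 87.13 TPM in wild type, 144.48, 108.19 and 162.34 in *timeless*, 73.95, 49.78 and 47.07 in *ddx11* and 49.25, 74.60 and 44.84 in *fancj*. All *timeless* libraries lay above the other 9. It rose by 0.83 on the log2 scale in *timeless* against wild type (SE 0.20, edgeR adjusted p = 0.0391), and its catalytic partner *KAT2A* was at 0.17 there (SE 0.19, edgeR adjusted p = 0.666). In *timeless* against *ddx11* the log2 fold change of *SGF29* was 1.44 (SE 0.22, edgeR adjusted p = 0.00828).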

How the data were processed

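Per the labels and the study's methods, poly(A)-selected RNA was sequenced and the authors aligned the reads to GRCg6a with Bowtie 2 and ran RSEM with the Ensembl 96 annotation; tool versions are not given in the sources used here. The deposited expected counts are estimates that need not be whole and are not scaled for depth. In the deposited TPM values the authors divided by gene length and gave each library an equal total, so a library with few long transcripts shows higher TPM for short ones. The authors' gene length in bases served to sort genes, and their FPKM was not used. Coordinates are not given here, since the gene table at hand is of another build (GRCg7b).

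Expected counts were rounded and fitted over all genes with edgeR 4.0.16 in R 4.3.3 (TMM, quasi-likelihood F test, Benjamini-Hochberg adjustment), 6 libraries a comparison, with genes of at least 1 TPM on average in at least 1 of the lines compared. The study used EBSeq, which was not at hand. DESeq2 1.42.0 served as an alternative, beside other TPM limits, filterByExpr, DESeq2 size factors, a block for the replicate number, 1 fit of all 12 libraries, and leaving out each library.

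Members were taken by the symbol rule alone, but the rule and the lists were set with earlier results of these data known. From the lists of related genes 1 gene is not reported here, and the counts over the lists leave it out. Values in every library are given for members altered in any comparison, the 3 highest and 3 lowest above 1 TPM of each class, TET genes, and the 2 highest and 2 lowest fold changes of each mutant against wild type. Gene length and chromosome were brought in only once the values were known. Libraries of a line differed by more than sampling noise, so none was taken as a copy (chi-square per degree of freedom 13.7 to 268).

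The labels number the replicates 1 to 3 in each line. Deviations of same-numbered libraries from their line means correlated above 0.1 in every pair for wild type with *fancj* (0.11 to 0.21), *timeless* with *ddx11* (0.25 to 0.46) and *timeless* with *fancj* (0.17 to 0.37). These comparisons were taken as paired from the data alone. That is an assumption, since no source states a shared batch. The correlations were not all above 0.1 for wild type with *timeless* (-0.03 to 0.14), wild type with *ddx11* (-0.20 to 0.02) or *ddx11* with *fancj* (-0.03 to 0.29). The pairing therefore does not join all lines. Replicate 3 was also low for long genes in *timeless*, *ddx11* and *fancj* (Spearman's rho with length over all genes -0.217, -0.258 and -0.379). The part of this in the correlations was not tested. The main fits carry no block for the replicate number in any comparison, including those taken as paired.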

Additional observations from a re-analysis of the deposited data

Results flagged for a closer look

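The direct comparison of *timeless* with *ddx11* was past the threshold for 2 of 47 members, against 5.12% of all genes (601 of 11736). For these 2 the changes from the shared wild type differed between the mutants. *SETD2* differed by a log2 fold change of -0.75 (SE 0.18, edgeR adjusted p = 0.0495), being below wild type in all 3 *timeless* libraries while of the 3 *ddx11* libraries 1 was above the wild-type range, 1 within it and 1 below it. *SIRT5* differed by -1.14 (SE 0.24, edgeR adjusted p = 0.0349), with a negative fold change in *timeless* and a positive one in *ddx11*, neither of which passed the threshold on its own. In the fit with a block for the replicate number the edgeR adjusted p was 0.00558 for *SETD2* and 0.0163 for *SIRT5*. Other fits did not keep the calls. With all 12 libraries in 1 fit the edgeR adjusted p was 0.332 for *SETD2* and 0.0512 for *SIRT5*. Leaving out each library in turn, it was 0.0552 to 0.149 for *SETD2* and 0.0186 to 0.138 for *SIRT5*. Both genes lie on the chromosome whose median log2 fold change was -0.57 in *timeless*, and its part in the difference was not tested.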

How the results depend on the processing

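The number of members altered in *timeless* against wild type (1) became 2 with no TPM limit, with DESeq2 and with the replicate block, 0 with all 12 libraries in 1 fit, and 0 to 1 when each replicate was left out. In *fancj* against wild type (1) it was 0 with at least 1 TPM in both lines, 2 with DESeq2, 2 with all 12 libraries and 0 to 4 without single replicates, the 4 being without *fancj* replicate 3 and the 0 without *fancj* replicate 2 or any wild-type library. Between *timeless* and *ddx11* (2) it was 0 with 1 TPM in both lines, 0 with all 12 libraries, 0 to 1 without single replicates, and 3 with no TPM limit and with DESeq2, *KMT2C* being added (-0.93, DESeq2 adjusted p = 0.00797). Between *fancj* and *timeless* (0) it was 1 with DESeq2 and 2 with all 12 libraries, and between *fancj* and *ddx11* (0) it was 1 with DESeq2 and 0 to 1 without single replicates. In *ddx11* against wild type the number of members altered was 0 under every alternative run. With DESeq2 the share of all genes altered was 12.9% in *timeless*, 4.77% in *ddx11* and 11.2% in *fancj* against wild type. Between mutants it was 10.1% (*timeless*, *ddx11*), 7.06% (*fancj*, *timeless*) and 7.03% (*fancj*, *ddx11*). With all 12 libraries these shares were 6.19%, 1.5%, 8.71%, 3.51%, 6.69% and 4.2% in the same order. The replicate block gave 8.98% in *timeless* against wild type. Among the comparisons taken as paired, the replicate block gave 1 member in *fancj* against wild type (*KAT2B*). It gave 3 between *timeless* and *ddx11* and 0 between *fancj* and *timeless*. Over all genes it called 496 (4.19%) in the first, against 506 in the main fit. In the second it called 1629 against 601 and in the third 247 against 102. Shares of all genes are not given here for the other TPM limits or for most fits without a replicate, so those member counts cannot be set beside them. For single genes, leaving out a replicate took the log2 fold change of *TET2* from -0.013 to 0.29 in *timeless* and from -0.53 to 0.39 in *fancj*, and that of *SETD2* in *ddx11* from -0.088 to 0.075. No other direction changed among the named values. The cause of these shifts was not tested. With 13406041 counts in the smallest library, genes near 1 TPM such as *KAT2B* and *KDM1B* rest on few reads.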
